A study of Mus musculus with 28 samples.

Results

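The perineuronal net genes Acan, Bcan, Ncan, Hapln1, Hapln4 and Tnr were followed through sorted nuclei of the mouse motor cortex. They were chosen by name, and all 6 are among the 41549 genes of the count tables. Each of 7 mice had received 2 adeno-associated virus (AAV) vectors for the nuclease Cas9, AAV-Cas9-miR-124-empty in the left motor cortex and AAV-Cas9-miR-124-g4 in the right one. Vector and side of the brain therefore coincided in every animal and cannot be told apart. The vectors are called empty and g4 here; what g4 stands for, the promoter that drives Cas9, and the strain and age of the mice were not given in the sources used here. Fixed nuclei were stained for the HA tag and sorted, and the HA-positive nuclei are listed as Cas9-positive. This gave 4 groups of 7 libraries, an HA-positive and an HA-negative one for either vector, 28 in all. By the labels, every group comes from the same 7 animals, numbered 17 to 23. Every group, HA-negative nuclei included, comes from tissue that had been injected with a Cas9 vector.

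A perineuronal net is a lattice of extracellular matrix around the cell body and proximal dendrites of certain neurons, in the cortex above all fast-spiking interneurons that express parvalbumin. Its backbone is hyaluronan, a long sugar chain. Chondroitin sulfate proteoglycans of the lectican family (aggrecan, brevican and neurocan, encoded by Acan, Bcan and Ncan) bind that chain, link proteins (Hapln1 and Hapln4) hold the proteoglycans on it, and the glycoprotein tenascin-R (Tnr) ties proteoglycans to each other at their other end. Aggrecan is the lectican most restricted to nets, whereas brevican, neurocan and tenascin-R are also part of the diffuse matrix and are made by glia as well as by neurons.

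The genes lie on 5 chromosomes (GRCm38). Apart from Tnr, each stands next to a lectican or link protein gene with no protein-coding gene in between. Ncan and Hapln4 are neighbours on opposite strands of chromosome 8 with a gap of 2222 bases, Bcan lies 21519 bases from Hapln2, and Hapln1 lies 43659 bases from Vcan. Acan likewise ends 2 bases from Hapln3. Because miR-124, a neuronal microRNA, is part of both vector names, the longest annotated 3' untranslated region (UTR) of each gene was searched on the sense strand for the 7-base matches to the miR-124 seed, GTGCCTT and TGCCTTA, which overlap in 6 bases. Acan held 1 match, GTGCCTT, in a UTR of 823 bases, and the other 5 genes held 0 in UTRs of 341 (Bcan) to 7516 bases (Tnr). Of 21020 genes with a UTR, 19.7% held at least 1 match, and the median UTR was 961 bases long. The Acan match is shown with its surroundings (chr7:79114540-79114569, plus strand, inside the 3' UTR), with the matching bases in capitals.
Acan: tttgatttcccaccGTGCCTTtccagggac

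The start regions of the genes also differed. RefSeq promoter windows (GRCm38.p6, 250 bases before to 50 after the start) were at hand for 5 of the 6 genes, and CG was counted in them, a dinucleotide that reads the same on both strands. Acan held 31 CG and Bcan 24, Ncan 9, and Hapln1 and Tnr 3 each, against a median of 7 over 32851 windows, of which 94.6% held at least 1. As many CG as in Acan were found in 10.6% of the windows, as many as in Tnr in 76.7%. The windows of Acan (chr7:79052976-79053275, plus strand) and Tnr (chr1:159523519-159523818, plus strand), the genes at the ends of this range, are given with every CG in capitals. Whether CG content goes with the differences between the nuclear fractions was not tested.
Acan: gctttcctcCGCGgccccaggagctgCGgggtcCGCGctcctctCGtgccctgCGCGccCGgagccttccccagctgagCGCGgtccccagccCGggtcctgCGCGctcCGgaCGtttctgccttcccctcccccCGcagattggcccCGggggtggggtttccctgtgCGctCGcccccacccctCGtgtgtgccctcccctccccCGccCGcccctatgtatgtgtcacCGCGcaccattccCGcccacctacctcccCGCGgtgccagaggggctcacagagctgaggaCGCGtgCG
Tnr: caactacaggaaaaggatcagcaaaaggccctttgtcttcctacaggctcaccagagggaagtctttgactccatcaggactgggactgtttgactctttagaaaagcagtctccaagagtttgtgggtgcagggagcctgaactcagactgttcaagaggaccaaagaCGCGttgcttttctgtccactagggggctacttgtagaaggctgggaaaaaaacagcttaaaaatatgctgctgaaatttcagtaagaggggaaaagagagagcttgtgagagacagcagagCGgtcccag

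Libraries held 248612 to 902944 counts and 8687 to 13668 detected genes. Levels are given as CPM, counts scaled to the library size with a correction for composition. Differences are log2 fold changes ± standard error (SE) from edgeR's quasi-likelihood test, and "called" means an adjusted p under 0.05 over all genes tested. The HA-positive libraries with fewer than 10000 genes were those of animals 17, 21 and 22 with the empty vector and of animal 18 with g4. One library stood apart and is called the mixed library here. It is the HA-positive library of animal 19 with g4 and held 618 CPM of the female-specific RNA Xist beside 46.0 CPM of Y-linked genes. The mixed library also had 1296 CPM of oligodendrocyte markers, where the other 6 of its group had at most 197.7, and 320.1 CPM of microglial markers, where they had at most 40.5.

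HA-positive nuclei were richer in interneuron markers and poorer in oligodendrocyte and microglial markers than HA-negative ones. Over all genes tested between the fractions, 3.5% were called higher and 3.5% lower with empty, and 3.32% and 3.08% with g4. Of the parvalbumin interneuron markers, 4 of 5 tested were called higher in HA-positive nuclei with either vector, led in size by Pvalb, the calcium-binding protein parvalbumin, with a log2 fold change of 2.82 ± 0.43 with empty and 2.30 ± 0.36 with g4 (edgeR adjusted p 6.1e-05 and 5.12e-05). Pvalb stood at 109 ± 43.1 and 75.0 ± 35.1 CPM in empty and g4 HA-positive libraries and at 15.5 ± 12.2 and 15.0 ± 8.44 CPM in HA-negative ones (SD, n = 7). Other inhibitory neuron markers were called higher in 6 of 9 tested with either vector. Oligodendrocyte markers were called lower in 6 of 6 with empty and 5 of 7 with g4, and microglial markers in 5 of 5 and 3 of 5. The g4 counts depend on the mixed library: without it, 8 of 8 oligodendrocyte and 5 of 5 microglial markers were called lower, and without the HA-positive library of animal 18 the counts were 4 of 8 and 3 of 5. Oligodendrocyte precursor markers gave 1 call in 1 tested gene, Pdgfra, lower with g4, and 2 of 2 with either of these libraries left out. Excitatory markers were called lower in 2 of 11 and 2 of 12 (Foxp2 and Bcl11b), astrocyte markers in 1 of 5 (Slc1a2) and 0 of 6, and the endothelial and mural genes had too few counts to be tested. In bulk libraries, fewer nuclei of a type and less RNA per nucleus cannot be told apart.

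**Figure D1:**
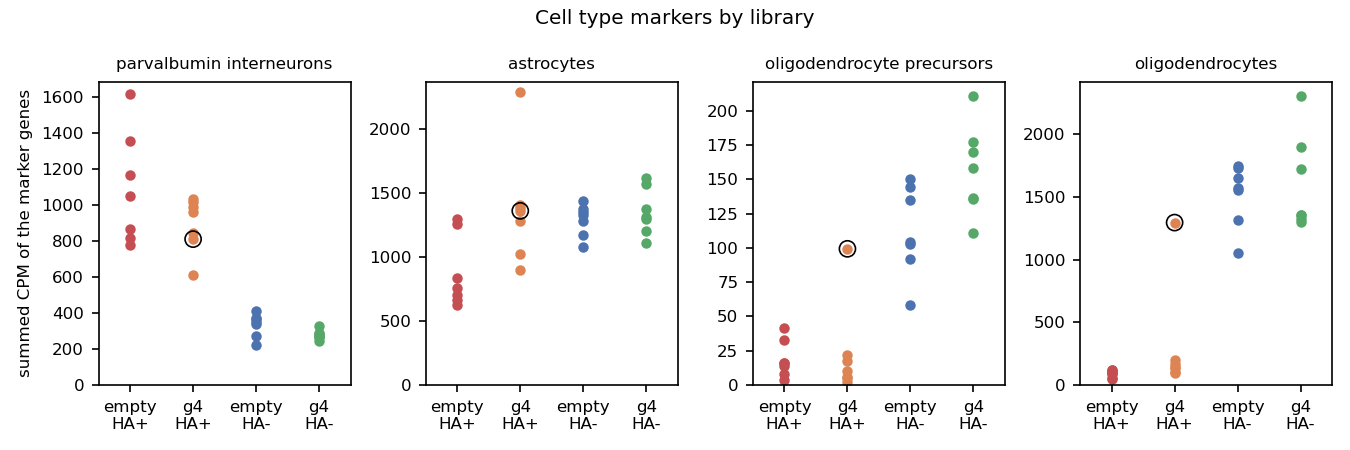
Summed CPM of marker genes for 4 cell types, 1 point per library, in the 4 groups (HA+ and HA- for HA-positive and HA-negative nuclei). The circled point is the mixed library (animal 19), which carries 1296 CPM of oligodendrocyte markers; parvalbumin interneuron sums lie between 612 and 1619 CPM in HA-positive and between 225 and 414 CPM in HA-negative libraries.

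Aggrecan RNA was counted mostly in HA-positive nuclei, and with g4 only there. Acan (chr7:79053483-79115099, plus strand) gave 62 counts in the 28 libraries, 57 of them in HA-positive and 5 in HA-negative nuclei. By animal from 17 to 23, g4 HA-positive libraries had 13.7, 19.2, 13.6, 18.6, 5.49, 0 and 2.47 CPM, whereas the 7 g4 HA-negative libraries were at 0. The HA-positive libraries thus exceeded their HA-negative partner in 6 of 7 animals, and in the remaining animal both were at 0. In g4 HA-negative libraries, Xist was at 0 CPM in animals 17, 18, 19 and 20 (males). It was at 859 to 1314 CPM in animals 21, 22 and 23 (females). Acan in g4 HA-positive libraries was 13.7 to 19.2 CPM in males 17, 18 and 20, and 0 to 5.49 CPM in the females. The mixed library of animal 19 had 13.6 CPM. It held 618 CPM of Xist and 46.0 CPM of Y-linked genes, so its RNA cannot be assigned to either sex. In empty HA-positive libraries the sexes overlapped, at 0 to 17.4 and 0 to 11.04 CPM. Whether sex goes with Acan was not tested. With 43 counts against 0, the pooled HA-positive level of 10.9 CPM was 14.6 times a floor of 3 counts over the g4 HA-negative group (0.743 CPM). This ratio leaves out the counting error of the 43 counts. A count of 0 in a single library of that group allows up to 4.06 to 9.74 CPM, and floors and intervals of counts cover counting error only.

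Acan had too few counts to pass the low-count filter in any comparison, so its CPM were compared by an exact two-sided permutation test (3432 divisions of 14 libraries). With g4 the HA-positive and HA-negative levels differed at an exact permutation p = 0.00466, unadjusted, in 1 of 7 such tests made for Acan and Hapln1. That test divides the libraries freely, without regard to the animal. With the animal as a block, an alternative added after the data were seen, exact sign changes of the 7 within-animal differences gave p = 0.0312, the smallest value they can give with 1 animal at 0 in both fractions. The mixed library supplied 1 of the 6 animals with a difference, and the sign-change test was not repeated without it. With only 5 such animals, exact sign changes cannot give less than p = 0.0625. Without the filter, edgeR called Acan among 18208 genes (adjusted p 0.000241), and with the mixed library left out Acan had 30 counts against 0 (exact permutation p = 0.00466).

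With the empty vector the contrast was smaller and not past the threshold. Empty HA-positive libraries had 17.4, 4.07, 0, 4.73, 0, 1.97 and 11.04 CPM of Acan in animals 17 to 23, and empty HA-negative libraries 0, 3.79, 0, 0, 0, 1.83 and 2.51. The HA-positive library had more counts in 3 of 7 animals (17, 20 and 23). Animals 18 and 22 had equal counts in both libraries, below the 3-count floor, and the other 2 had 0 in both. The pooled ratio of 14 to 5 counts was 3.9 (95% interval 1.33 to 13.8, exact binomial), with p = 0.0839 by exact permutation and p = 0.0625 by exact sign changes within animals, which cannot go lower here. Between the vectors, HA-positive libraries had 10.4 ± 7.76 CPM of Acan with g4 and 5.6 ± 6.42 with empty (SD, n = 7). Acan was higher with g4 in 4 of 7 animals by CPM and in 5 of 7 by counts. The pooled ratio of 43 to 14 counts was 2.26 (95% interval 1.21 to 4.47, exact binomial), an interval that leaves out the spread between libraries. The vectors were not separated beyond that spread in HA-positive (exact permutation p = 0.216) or HA-negative nuclei (p = 0.192).

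Hapln4 was the 1 gene of the 6 called in any comparison by edgeR with its low-count filter. It lies at chr8:70083457-70090862, plus strand, and encodes a brain link protein found at nets together with brevican. With the empty vector, HA-positive libraries had 195, 110, 116, 69.3, 95.3, 138 and 81.0 CPM in animals 17 to 23, and HA-negative libraries 41.6, 73.8, 56.8, 50.01, 34.5, 38.5 and 47.8. Hapln4 was higher in HA-positive nuclei in 7 of 7 animals, by 1.39 to 4.67 times, and the groups overlapped only in the lowest HA-positive and the highest HA-negative value, which come from different animals. The log2 fold change was 1.24 ± 0.26, a rise of 2.36-fold (edgeR adjusted p 0.00166). In this comparison 3.5% of 5538 tested genes were called higher and 3.5% lower, and 1 of the 4 net genes tested was called. The call held in all 14 alternatives run, between 0.94 and 1.37 (adjusted p 0.000111 to 0.0205), including the one without the empty HA-positive libraries of fewer than 10000 genes.

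With g4, the level of Hapln4 in HA-positive nuclei lay near that of HA-negative nuclei. The 7 g4 HA-positive libraries had 89.8, 24.7, 68.0, 81.0, 50.8, 42.5 and 29.6 CPM, and the g4 HA-negative libraries 46.5, 55.2, 58.3, 56.5, 28.4, 59.2 and 49.1. The HA-positive library was the higher one in 4 animals and the lower in 3, with a log2 fold change of 0.16 ± 0.27 (edgeR adjusted p 0.84, 95% interval -0.43 to 0.75). In this comparison 3.32% of 6264 tested genes were called higher and 3.08% lower, and 0 of the 5 net genes tested were called in either direction by edgeR, DESeq2 or limma voom. Ncan and Tnr, 2 of the 5, had an unadjusted p under 0.05, as did 1089 of all 6264 genes tested.

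Between the vectors, mean Hapln4 in HA-positive nuclei was 115 ± 41.9 CPM with empty and 55.2 ± 25.1 with g4 (SD, n = 7). It was lower with g4 in 6 of 7 animals, all but animal 20, and the ranges overlapped between 69.3 and 89.8 CPM. The log2 fold change was -1.04 ± 0.29 (95% interval -1.66 to -0.415). By unadjusted p (0.00104) Hapln4 ranked 14th among 5011 genes, but it did not pass the correction (edgeR adjusted p 0.344, and 0.114 to 0.842 in 15 alternatives). In this comparison 3 genes were called, 0.0599% of those tested. Of the 4 net genes tested, 0 were called by edgeR, DESeq2 or limma voom. An unadjusted p under 0.05 was reached by 1 of the 4 (Hapln4) and by 335 of all 5011 genes tested. Without the HA-positive libraries of fewer than 10000 genes the log2 fold change of Hapln4 was -0.61 (edgeR adjusted p 0.743). This contrast and the fraction contrast with the empty vector share the 7 empty HA-positive libraries and are not independent. Parvalbumin interneuron markers summed to 780 to 1619 CPM in empty and 612 to 1033 CPM in g4 HA-positive libraries. Of 5 tested, 1 had a positive log2 fold change (median -0.26) and 0 were called. Syt2 of that list had 195 ± 89.7 CPM with empty and 89.4 ± 28.4 with g4, and Kcnc2 had 265 ± 97.5 and 297 ± 63.8 (SD, n = 7). Other inhibitory neuron markers summed to 2248 to 2971 CPM with empty and 1351 to 2561 CPM with g4, with 7 of 9 genes at a negative log2 fold change (median -0.35) and 0 called, Gad2 at -0.66 and Reln at -0.80 (edgeR adjusted p 0.162 each). Astrocyte markers had a median of 0.61 in the same contrast, with 0 called. The part of these markers in the Hapln4 values was not tested.

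In HA-negative nuclei Hapln4 had 49.0 ± 13.3 CPM with empty and 50.5 ± 10.8 with g4 (log2 fold change 0.04 ± 0.24, edgeR adjusted p 0.999). There edgeR called 0% of 6262 tested genes, 236 had an unadjusted p under 0.05, with 1 call by DESeq2 and 0 by limma voom, and 0 of the 4 net genes tested were called. The difference of the g4 effect between the fractions was -1.06 ± 0.37 for Hapln4, which ranked 42nd by unadjusted p but had an edgeR adjusted p of 0.924. This test called 0% of 7197 genes, of which 359 had an unadjusted p under 0.05, with 0 calls by DESeq2 or limma voom, and it called 0 of the 5 net genes tested. The plot of the values by library shows the lower g4 value of 6 animals in HA-positive nuclei.

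**Figure D2:**
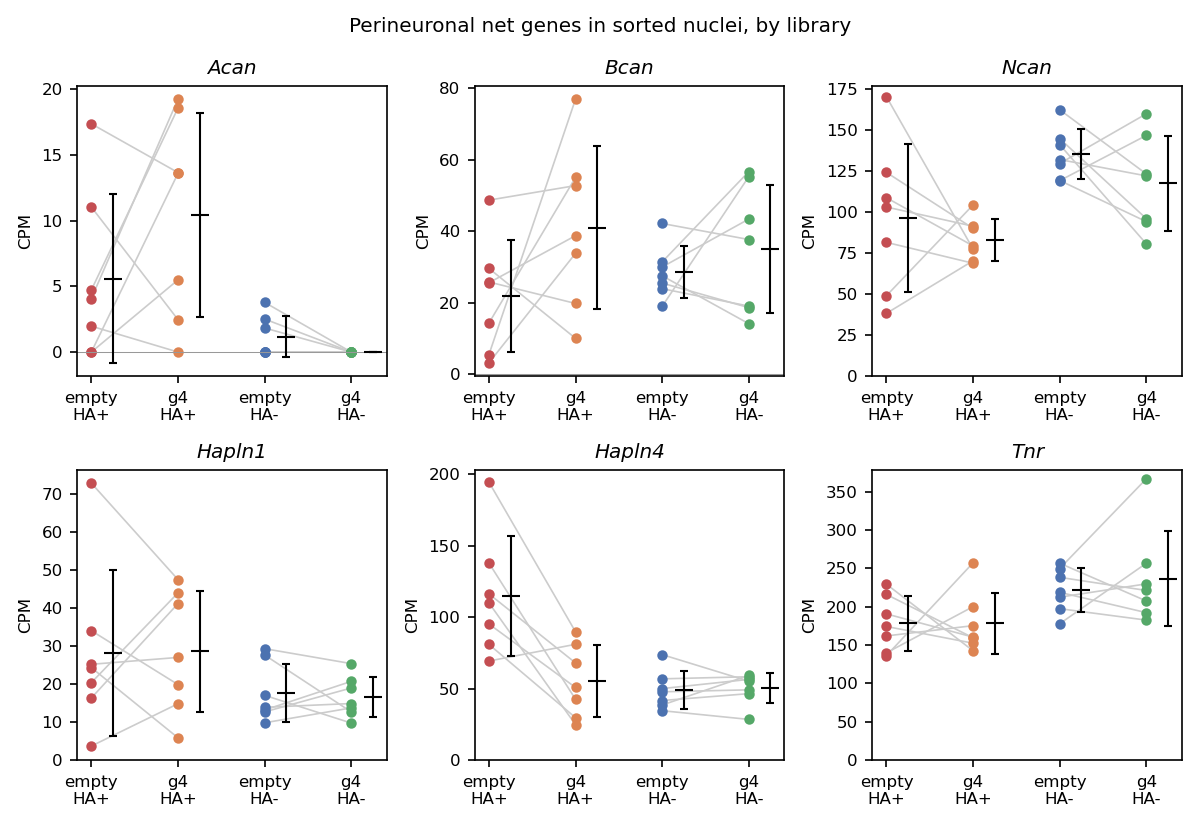
CPM of the 6 genes in each library (points) of the 4 groups, with grey lines joining the libraries of an animal within a fraction and black marks for mean and SD (n = 7). Hapln4 lies at 69.3 CPM or above in empty HA-positive libraries and at 73.8 CPM or below in HA-negative ones, and Acan is at 0 in the 7 g4 HA-negative libraries.

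Hapln1 (chr13:89539796-89611652, plus strand) encodes the cartilage link protein, which in brain is made by neurons that build nets. Empty HA-positive libraries ran from 3.68 through a median of 24.3 to 72.9 CPM, and g4 HA-positive ones from 5.86 through 27.0 to 47.5. HA-negative libraries were lower and narrower, from 9.80 through 13.9 to 29.3 CPM with empty and from 9.74 through 14.9 to 25.4 with g4. Hapln1 was higher in HA-positive nuclei in 6 of 7 animals with either vector, but the ranges overlapped. With g4 the log2 fold change was 0.73 ± 0.40 (edgeR adjusted p 0.356). With empty, where the filter removed the gene, the means of 28.1 ± 21.8 and 17.7 ± 7.72 CPM (SD, n = 7) gave an exact permutation p = 0.277. The difference of 10.5 CPM depended on single animals. Without animal 22, whose HA-positive library had the highest level, it was 4.96 CPM (exact permutation p = 0.333), and without the 3 HA-positive libraries of fewer than 10000 genes 3.18 CPM (p = 0.606). Without animal 23, whose HA-positive library had the lowest level, it was 16.2 CPM, past the threshold in this 1 of 10 alternatives (exact permutation p = 0.0455). The vectors gave nearly equal means, 28.1 and 28.6 CPM in HA-positive (exact permutation p = 0.966) and 17.7 and 16.6 CPM in HA-negative nuclei (p = 0.766).

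Neurocan and tenascin-R leaned the other way, towards HA-negative nuclei. Ncan (chr8:70093085-70120873, minus strand), a lectican that is processed by proteolysis in the adult brain, ran from 68.7 through 79.3 to 104 CPM in g4 HA-positive and from 80.6 through 122 to 160 CPM in g4 HA-negative libraries. It was lower in HA-positive nuclei in 7 of 7 animals (log2 fold change -0.51 ± 0.19), without passing the correction (edgeR adjusted p 0.108). With empty, HA-positive libraries spread from 38.2 through 103 to 170 CPM and HA-negative ones from 119 through 132 to 162 CPM, lower in 5 of 7 animals (-0.47 ± 0.24, adjusted p 0.274). The 2 lowest Ncan values came from the empty HA-positive libraries of animals 17 and 21, both with fewer than 10000 detected genes. The vectors did not differ beyond the spread, with 83.1 ± 12.8 against 96.4 ± 45.2 CPM in HA-positive and 118 ± 29.1 against 135 ± 15.4 CPM in HA-negative nuclei for g4 against empty (SD, n = 7; log2 fold changes -0.23 ± 0.27 and -0.20 ± 0.16, edgeR adjusted p 0.929 and 0.999).

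Tnr (chr1:159523769-159931729, plus strand) had the highest CPM of the 6 genes in every group. Empty HA-positive libraries ran from 136 through 174 to 229 CPM and empty HA-negative ones from 178 through 219 to 257 CPM, lower in HA-positive nuclei in 7 of 7 animals (log2 fold change -0.30 ± 0.16, edgeR adjusted p 0.288). With g4 they ran from 143 through 160 to 257 CPM and from 183 through 221 to 367 CPM, lower in 6 of 7 animals (-0.39 ± 0.16, adjusted p 0.158). The exception was animal 19, whose HA-positive library is the mixed one and had 257 CPM. With the mixed library left out, Tnr was called lower in HA-positive nuclei, at -0.52 (edgeR adjusted p 0.0321), and at -0.55 (adjusted p 0.033) without both g4 libraries of the animal.

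Oligodendrocyte precursors and oligodendrocytes are known sources of tenascin-R. Markers of the precursors summed to 3.68 to 41.7 CPM in empty HA-positive and 58.7 to 150 CPM in empty HA-negative libraries, and to 1.95 to 99.4 and 111 to 211 CPM with g4. The 99.4 CPM were those of the mixed library, and the other 6 of its group had at most 22.0 CPM. Among the defining markers, Pdgfra was at 0 in 5 of 7 empty and 4 of 7 g4 HA-positive libraries. Tnr in the HA-positive groups stayed at 136 CPM or above in each library, and the part of the glial markers in its fraction difference was not tested. Between the vectors Tnr was level, with 178 ± 35.8 and 178 ± 39.5 CPM in the HA-positive fraction (SD, n = 7), a log2 fold change of -0.01 ± 0.18 (edgeR adjusted p 0.997). In HA-negative nuclei it had 222 ± 28.6 CPM with empty and 237 ± 62.4 with g4 (0.08 ± 0.14, adjusted p 0.999). Tnr spans other annotated genes, Gm10530 and Gm37731 on its own strand and Gm38039 on the opposite one, and without a stated strand setting their reads cannot be told apart.

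Bcan (chr3:87987531-88000230, minus strand) encodes brevican, the smallest lectican of the brain matrix. In HA-positive nuclei it ran from 3.15 through 25.5 to 48.6 CPM with empty and from 10.0 through 38.7 to 76.9 CPM with g4. It was higher with g4 in 5 of 7 animals (log2 fold change 0.96 ± 0.50, 95% interval -0.122 to 2.05), and the ranges overlapped (edgeR adjusted p 0.751). In HA-negative nuclei it ran from 18.9 through 27.5 to 42.1 CPM with empty and from 14.1 through 37.6 to 56.6 CPM with g4, higher with g4 in 3 of 7 animals (0.27 ± 0.32, adjusted p 0.999). The fractions differed by -0.42 ± 0.47 with empty (adjusted p 0.696) and 0.28 ± 0.37 with g4 (adjusted p 0.784), HA-positive minus HA-negative.

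Astrocytes are a main source of brevican. Their markers were higher in g4 than in empty HA-positive libraries without passing the test. Of 5 tested astrocyte genes, 5 had a positive log2 fold change (median 0.61) and 0 were called, and the sums ran from 623 to 1301 CPM with empty and from 901 to 2290 CPM with g4. The g4 HA-positive library of animal 21 had both the highest Bcan, 76.9 CPM, and the highest astrocyte sum, 2290 CPM. The empty HA-positive library of animal 21 had the highest astrocyte sum of its group, 1301 CPM, with 5.44 CPM of Bcan. The g4 HA-positive library of animal 22 had the lowest Bcan of its group, 10.0 CPM, at an astrocyte sum of 1280 CPM, where the group median was 1362 CPM. The part of the astrocyte markers in the Bcan values was not tested.

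**Figure D3:**
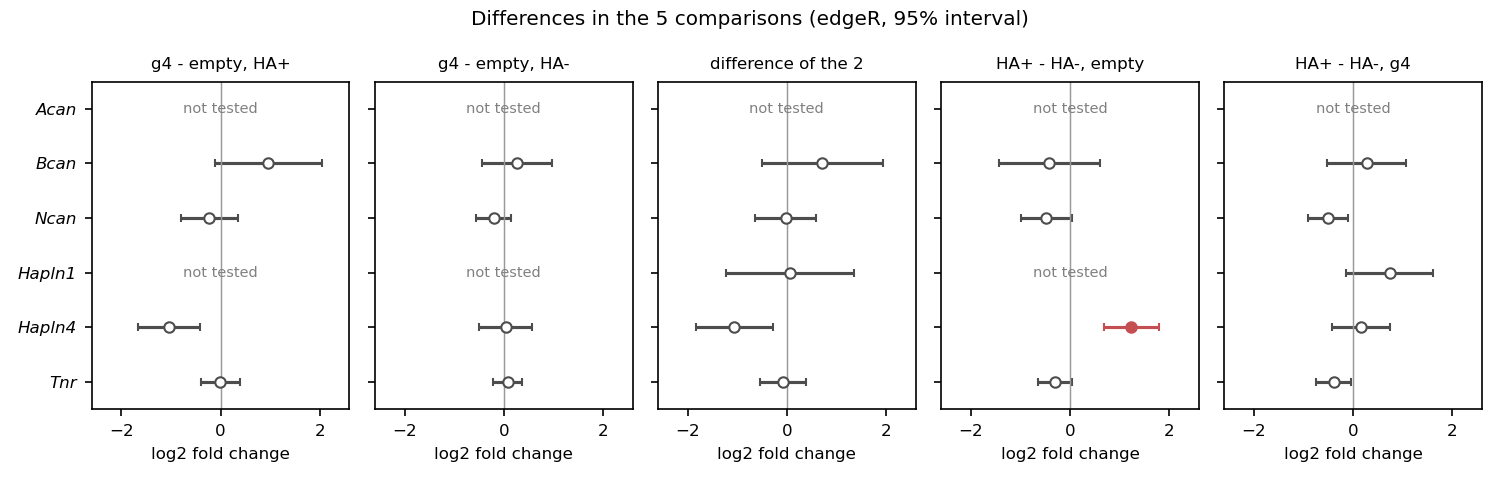
Log2 fold change of each gene in the 5 comparisons, with bars for the 95% interval (SE times the t quantile of the residual degrees of freedom). The filled red point is the one called difference, Hapln4 in HA-positive against HA-negative nuclei with the empty vector (1.24); "not tested" marks genes removed by the low-count filter.

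Compared per kilobase of annotated exon, the order of the genes differed between the groups. In empty HA-positive nuclei Hapln4 led with 29.3 ± 10.7 CPM per kb, above Tnr (13.9 ± 2.79) in 7 of 7 libraries. Tnr and Ncan (13.4 ± 6.29), Ncan and Bcan (5.36 ± 3.87), Bcan and Hapln1 (4.77 ± 3.70), and Hapln1 and Acan (0.749 ± 0.859) were each within their spread between libraries of one another. Within single libraries, Ncan was above Bcan and Hapln1 above Acan in 6 of 7. Tnr was above Ncan in 3 of 7 and Bcan above Hapln1 in 4 of 7. In g4 HA-positive nuclei Hapln4 (14.1 ± 6.40) and Tnr (13.9 ± 3.07) stood level, and no pair of neighbours in the order was further apart than the sum of their SDs. Within single libraries, Tnr was above Ncan, Bcan above Hapln1 and Hapln1 above Acan in 6 of 7. In empty HA-negative nuclei Ncan (18.8 ± 2.14) and Tnr (17.2 ± 2.22) came first without separation, followed by Hapln4 (12.5 ± 3.38), which was below Tnr in 7 of 7 libraries. Bcan (7.00 ± 1.79), Hapln1 (2.99 ± 1.31) and Acan (0.156 ± 0.209) followed, each apart from the one before. With g4, HA-negative nuclei had Tnr (18.4 ± 4.85), Ncan (16.3 ± 4.04), Hapln4 (12.9 ± 2.75) and Bcan (8.59 ± 4.39), each within the spread of the next, and then Hapln1 (2.81 ± 0.911) and Acan at 0. Hapln4 was above Bcan in 6 of 7 of these libraries. The libraries hold nuclear RNA, so reads from introns may add to genes in proportion to their span, and how introns were counted was not given in the sources used here.

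The sum over the 6 genes hardly moved, with 445 ± 74.2 CPM in empty HA-positive, 397 ± 45.6 in g4 HA-positive, 453 ± 32.4 in empty HA-negative and 456 ± 66.2 in g4 HA-negative libraries (SD, n = 7). Its composition differed more, without a test. Hapln4 made up 25.3 ± 5.7% of the sum in empty HA-positive libraries and 13.8 ± 6.23%, 10.7 ± 2.41% and 11.2 ± 2.58% in the other groups, in the same order. The shares of Tnr were 40.9 ± 9.52%, 44.9 ± 7.65%, 48.7 ± 3.51% and 51.3 ± 5.72%.

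**Figure D4:**
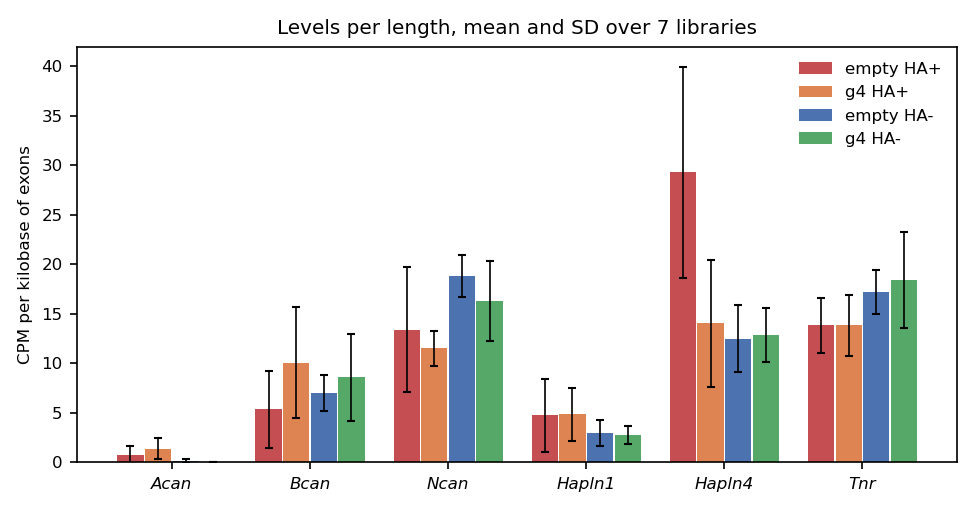
CPM per kilobase of exons for the 6 genes in the 4 groups; bars are means and whiskers SD over 7 libraries, on a linear axis from 0. Hapln4 in empty HA-positive nuclei is the tallest bar, at 29.3, and Acan the lowest gene in each group.

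The medians of the net genes that could be tested were close to those of all tested genes in the vector comparisons. They were -0.12 against -0.01 for g4 minus empty in HA-positive nuclei, 0.06 against -0.00449 in HA-negative nuclei and -0.02 against 0.03 for the difference between the fractions (log2; 4, 4 and 5 genes). For HA-positive minus HA-negative nuclei they were -0.36 against 0.01 with empty (4 genes) and 0.16 against 0.01 with g4 (5 genes). These medians hide genes that lean in opposite directions, and the genes that passed the filter are not all 6.

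Correlations between the net genes were computed for the 10 pairs of the 5 genes with enough counts, without Acan, as Pearson's r of log2 CPM, and describe libraries that share animals and differ in depth. Over the 28 libraries r lay between -0.37 (Ncan with Hapln4, the neighbours on chromosome 8) and 0.0852 (Ncan with Tnr). Within the 14 HA-positive libraries it ran from -0.498 (Ncan with Tnr) to 0.239 (Ncan with Hapln1). Within the 14 HA-negative ones it ran from -0.61 (Bcan with Ncan) to 0.413 (Hapln4 with Tnr), with -0.527 for Hapln1 with Tnr. The 3 genes with the highest r to each were also named. They were picked out of 7197 on these same libraries, where some high values arise by chance, and were not tested. For Hapln4 they were Scn8a, the sodium channel of nodes and axon initial segments (r = 0.752, Spearman rho 0.845), Ttll7 (0.738) and Tsg101 (0.717). Within HA-positive libraries r with Scn8a was 0.81 and within HA-negative ones 0.64, and with Tsg101 0.848 and 0.148. For Ncan they were Rnf150 (r = 0.795), Cpeb2 (0.786) and Htr2c (0.766), for Tnr Sf3a1 (0.743), Laptm5 (0.693) and Med23 (0.686). The values for the low-count genes were smaller, with Cep350 (0.671), Akap8 (0.631) and Extl1 (0.615) for Bcan and Snord12 (0.64), Snx13 (0.632) and Gm24518 (0.613) for Hapln1.

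Other genes of the matrix were read from 6 lists. Between the vectors, 0 of their tested genes were called in HA-positive nuclei, in HA-negative nuclei or in the difference between the fractions. Between the fractions, where 3.5% of all tested genes were called higher and 3.5% lower with empty and 3.32% and 3.08% with g4, the list of other proteoglycans, link proteins and tenascins had 0 genes higher and 2 lower of 4 tested with empty, and 0 and 1 of 4 with g4. Versican, Vcan, the lectican of oligodendrocyte precursors, was lower in HA-positive nuclei with both vectors. It stood at 6.97 ± 11.7 against 48.5 ± 22.8 CPM with empty and 8.39 ± 14.7 against 59.0 ± 24.9 with g4 (SD, n = 7; log2 fold changes -2.75 ± 0.60 and -2.51 ± 0.65, edgeR adjusted p 0.00322 and 0.0311). With the mixed library left out its value with g4 was -4.01 (edgeR adjusted p 2.96e-07), and without the HA-positive library of animal 18, which had fewer than 10000 genes, it was not called (-2.33, adjusted p 0.0568). Ptprz1, a receptor phosphatase whose secreted form is the proteoglycan phosphacan, was called lower with empty (-1.20 ± 0.28, edgeR adjusted p 0.00668). Hapln2 and Hapln3, the remaining link proteins, had group means of 0 to 6.45 CPM and 0 to 0.329 CPM.

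The sugar-chain genes gave 1 call. Chst15, a sulfotransferase that builds the doubly sulfated chondroitin unit, was lower in HA-positive nuclei with g4, at 16.5 ± 8.59 against 41.6 ± 19.7 CPM (SD, n = 7; log2 fold change -1.30 ± 0.37, edgeR adjusted p 0.027), 1 of 3 tested sulfation genes. With empty 0 of 3 sulfation genes were called. For chain synthesis 0 of 5 were called with either vector, for hyaluronan genes 0 of 0 and 0 of 1, and for proteases and inhibitors 0 of 2 and 0 of 2. Without the HA-positive libraries of fewer than 10000 genes, an alternative added after the data were seen, Cemip, which binds and degrades hyaluronan, was called higher with both vectors (1.43 ± 0.45 and 1.15 ± 0.35, edgeR adjusted p 0.0397 and 0.0413). Chsy3 (-1.54) and Chst11 (-1.36) were then called lower with empty (edgeR adjusted p 0.0419 and 0.0243).

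Among receptors and ligands held by the net, 1 gene was called higher and 2 lower of 10 tested with empty, and 1 and 0 of 11 with g4. Against those shares of all genes, 1 call of 10 or 11 is not a result about the list. Plxna4, a plexin that transmits semaphorin signals, was higher in HA-positive nuclei with both vectors, at 196 ± 31.5 against 118 ± 34.5 CPM and 207 ± 47.9 against 127 ± 31.3 CPM (SD, n = 7; log2 fold changes 0.74 ± 0.19 and 0.74 ± 0.17, edgeR adjusted p 0.0117 and 0.00462). Nptx1, a secreted pentraxin of excitatory synapses, was lower with empty, at 81.7 ± 45.6 against 179 ± 46.1 CPM (-1.12 ± 0.28, edgeR adjusted p 0.0102), and was not called without the libraries of fewer than 10000 genes (-0.999, edgeR adjusted p 0.0557). Ptprd, a receptor phosphatase related to the chondroitin sulfate receptor Ptprs, was lower with empty by -0.46 ± 0.14 (edgeR adjusted p 0.0355). With g4 it stood at -0.44 ± 0.17 (adjusted p 0.165). With the animal as a block, edgeR did not call it with empty (adjusted p 0.0573) and called it lower with g4 (adjusted p 0.0372). With the mixed library left out it was also called lower with g4 (-0.58, edgeR adjusted p 0.0125), as were Rtn4r (-1.25, adjusted p 0.0259) and, in the other direction, Plxna1 (0.66, adjusted p 0.0199).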

How the data were processed

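The values deposited by the authors are raw counts of each gene in each library, per the labels. The counts were made on GRCm38, per the submitters' processing notes. Aligner, counting program and strand setting: not given in the sources used here. Cells without a value were read as 0, and 1 entry that names no gene was left out. For animals 21 to 23 the sample titles and the column names carry numbers that differ by 1, and the sample descriptions tied each sample to its column. The 6 genes, the matrix lists and the marker lists were chosen with earlier results of these data known.

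Genes were tested in 5 comparisons with edgeR 4.0.16 under R 4.3.3, using its filter on low counts by group, TMM factors, a robust quasi-likelihood fit and two-sided tests, with Benjamini-Hochberg adjustment over every gene tested. CPM come from TMM factors over all 28 libraries. Genes removed by the filter were compared by exact permutation of CPM, and with the animal as a block by exact sign changes of within-animal differences (128). SE is the absolute log2 fold change divided by the square root of F. On counts drawn at random with known changes, the edgeR test recovered 52.3% of 86 genes changed by 1 on the log2 scale and 97.5% of 81 changed by 2 for g4 against empty in HA-positive nuclei (4662 genes). It also called 4 unchanged genes there. For HA-positive against HA-negative nuclei with empty (5213 genes) it recovered 44.6% of 92 and 96.3% of 82, and called 10 unchanged genes.

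Named were the 6 genes in every comparison, called genes of the other matrix lists, the 3 genes most like each of the 6 (log2 CPM, prior count 2), and up to 4 called markers per cell type. By the labels, the libraries of a group come from different mice, and the same mice supply every group, so the animal numbers pair the libraries by design. The median correlation of same-animal deviations from the group means was 0.0112 to 0.0609 over the 4 pairs of groups compared. The animal as a block, other scalings (RLE, library totals), no filter, DESeq2 1.42.0, limma voom 3.58.1 and left-out libraries or animals were the alternatives.
Gene positions and UTRs come from the GENCODE M21 annotation, promoter windows from RefSeq. Libraries were not near-duplicates of each other, with a largest correlation of 0.899.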

Additional observations from a re-analysis of the deposited data

Results flagged for a closer look

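Each gene was checked in each of the 4 groups (24 sets of 7 libraries) for 1 library far from the other 6, a check that chance passes in about 1 of 20 sets. Hapln4 in the g4 HA-negative library of animal 21 had 28.44 CPM, against 46.47 CPM in the nearest library, a gap of 0.586 of the whole range. Tnr in the g4 HA-negative library of animal 18 had 366.8 CPM, against 256.7 CPM in the nearest, 0.598 of the range. That library had 310408 counts, the fewest of its group. Neither value was removed.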

How the results depend on the processing

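Hapln4 in HA-positive against HA-negative nuclei with the empty vector kept its direction and call in all 14 alternatives run. Counts of called genes moved more. For g4 against empty in HA-positive nuclei, 3 genes became 28 without a filter, 11 by DESeq2, 1 with the replicate block, 0 without the HA-positive libraries of fewer than 10000 genes, 5 without the mixed library (HA-positive, g4, animal 19), and 1 to 4 with each animal left out. The calls were 1 higher and 2 lower, and 1 and 1 with library totals. In HA-negative nuclei 0 became 1 by DESeq2, and for the difference between fractions 0 became 3 without a filter. Between fractions with empty, 388 (194 higher and 194 lower) became 661 without a filter and 251 to 371 with animals left out. With g4, 401 became 259 with library totals and 218 to 507 with animals or the mixed library left out. Of the net genes, 0 were called between fractions with g4, and 1 without a filter (Acan), 1 without the mixed library (Tnr) and 0 to 1 with animals left out. The replicate block changed no call of a net gene. The cause of these shifts was not tested.

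Values near 0 changed sign and were called in none of these settings. Tnr for g4 against empty in HA-positive nuclei (-0.01) was 0.0862 with library totals, 0.0446 without a filter, 0.0131 by limma voom and 0.043 without the libraries of fewer than 10000 genes, and -0.18 to 0.11 with animals left out. Ncan in the difference between fractions (-0.02) was 0.00751 without a filter and 0.0885 by limma voom, and Hapln1 (0.06) was -0.0674 by limma voom. With animals left out, Ncan ran from -0.26 to 0.11, Hapln1 from -0.23 to 0.31 and Tnr from -0.34 to 0.0788 in that test. In HA-negative nuclei g4 against empty gave -0.0121 to 0.15 for Tnr and -0.0553 to 0.15 for Hapln4, and Hapln4 between fractions with g4 gave -0.00412 to 0.30. Hapln1 between vectors gave -3.58 to 5.22 CPM in HA-positive (-3.58 to 4.80 with animals left out) and -2.5 to 1.25 CPM in HA-negative nuclei. With the replicate block, exact sign changes within animals left the calls of Acan and Hapln1 as they were (p = 0.0312 for Acan between fractions with g4, mixed library included). Depth limits Acan, Hapln1 and Bcan most, with 0 to 13, 1 to 37 and 2 to 56 counts per library.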
